A study of Arabidopsis thaliana with 14 samples.

Results

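The 9 beta-tubulin genes of Arabidopsis thaliana, TUB1 to TUB9, were taken by gene identifier from the 24350 genes of the deposited tables. The rule used no expression value, but the members were chosen with earlier results of these data known. All 9 were listed in all 5 groups with levels far above the filter used below. The study asked how hydrogen peroxide affects gene expression by BZR1, a transcription factor of the brassinosteroid pathway. RNA was sequenced from 14 samples of plants grown for 6 days in the dark on medium with 2 µM PPZ (propiconazole, an inhibitor of brassinosteroid biosynthesis), which all 5 groups received. The tissue is labelled hypocotyl, whereas the study's methods speak of seedlings.

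The groups were Col-0 mock (wild type, PPZ alone, 3 samples), Col-0 DPI (wild type, PPZ and 1 µM DPI, 3 samples), bzr1-1D mock (PPZ alone, 3 samples), bzr1-1D DPI (PPZ and 1 µM DPI, 3 samples) and bzr1-1D DPI+H2O2 (2 samples, with 0.3 mM H2O2 beside PPZ and 1 µM DPI). DPI (diphenyleneiodonium) inhibits NADPH oxidases, which generate apoplastic superoxide that is turned into H2O2, and is known to act on other flavoproteins too. The dominant allele bzr1-1D makes a stabilised BZR1 protein that is active without brassinosteroid, and it is in the Columbia ecotype of the wild type. H2O2 was added in the mutant and with DPI only, so no group shows H2O2 in Col-0 or without DPI. The tables hold the authors' mean of each group and no value per sample. By its decimals, the mean of bzr1-1D mock averages 2 libraries although 3 are labelled, and which one was left out is not given. Every value below is such a mean, with no SD, no n and no test, and no difference could be set against the spread between replicates. The tables name no unit, and the means are read here as FPKM (fragments scaled for transcript length and for the number of mapped fragments), which can be compared between genes. Sequencing depth is unknown.

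Beta-tubulin pairs with alpha-tubulin into the dimer that polymerises into microtubules. In plant cells, cortical microtubules guide the cellulose synthase complexes and so bear on the direction in which a cell expands. The dark-grown hypocotyl lengthens almost wholly by cell expansion and is a standard organ for such work. Plant beta-tubulins are near-identical in their folded body and differ mainly in the acidic tail at the C-terminal end, which lies on the microtubule surface and is bound by many microtubule-associated proteins.

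The genes lie on 4 chromosomes of the RefSeq annotation (assembly TAIR10.1). TUB1 (AT1G75780) spans chr1:28451138-28453820 on the minus strand, and TUB8 (AT5G23860) spans chr5:8042853-8044934 on the plus strand. Each gene has 3 exons except TUB6 (AT5G12250), which has 4, and the proteins have 444 to 450 residues. TUB2 (AT5G62690, chr5:25181296-25183811) and TUB3 (AT5G62700, chr5:25184258-25186777) stand in tandem on the plus strand with 446 bases between them. Their proteins are 100% identical and their coding sequences 97.6% identical, with 32 differing bases. The first 60 coding bases show how close the pair is and how far TUB1 and TUB8, the genes that differed most between groups, stand from it; capitals mark bases that differ from TUB2.
TUB2: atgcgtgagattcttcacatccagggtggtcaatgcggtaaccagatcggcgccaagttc
TUB3: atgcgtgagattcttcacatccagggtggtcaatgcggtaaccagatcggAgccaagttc
TUB8: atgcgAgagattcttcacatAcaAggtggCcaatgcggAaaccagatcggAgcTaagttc
TUB1: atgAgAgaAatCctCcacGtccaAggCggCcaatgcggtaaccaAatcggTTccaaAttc

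In this stretch TUB3 had 1 differing base, TUB8 7 and TUB1 13. The last 60 coding bases before the stop codon encode the acidic tail, and are shown for the same genes because the tails are where the isotypes part; capitals mark codons for the acidic residues glutamate and aspartate.
TUB2: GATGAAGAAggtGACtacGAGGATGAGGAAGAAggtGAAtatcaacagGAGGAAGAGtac
TUB3: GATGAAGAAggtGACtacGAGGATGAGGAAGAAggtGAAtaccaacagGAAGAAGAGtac
TUB8: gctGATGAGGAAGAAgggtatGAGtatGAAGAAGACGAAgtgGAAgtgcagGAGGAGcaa
TUB1: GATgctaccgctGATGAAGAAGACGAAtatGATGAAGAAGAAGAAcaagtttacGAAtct

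Of the 20 codons in this stretch, 13 were acidic in TUB2 and TUB3 and 12 in TUB8 and TUB1, and the 9 genes ranged from 11 in TUB4 to 14 in TUB6. Over whole proteins, TUB1 was closest to TUB5 (95.5% identical), and TUB8 was closest to TUB2 and TUB3 (95.8% each), while TUB1 and TUB8 shared 92.2%. The member nearest to TUB1 in expression profile was TUB8, not TUB5. Of the stretches of 50 bases in the TUB2 transcript, 22.3% occurred unchanged in TUB3, and 22% of those in TUB3 occurred in TUB2. How the authors' mapping divided such reads is not given in the sources used here, so the split between TUB2 and TUB3 is uncertain. For the other 7 genes at most 0.235% of such stretches were shared with any other member.

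**Figure D1:**
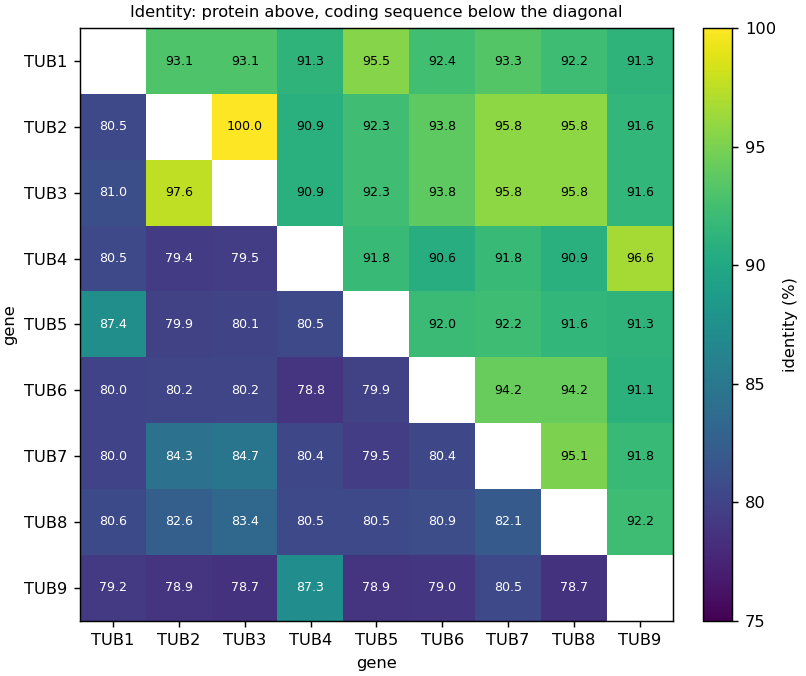
Pairwise identity of the 9 beta-tubulin genes in percent, computed from the RefSeq annotation, with proteins above the diagonal and coding sequences below it. TUB2 and TUB3 are 100% identical as proteins, and the pair TUB1 and TUB8 is 92.2% identical.

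The family split into 4 abundant genes and 5 scarcer ones. In Col-0 mock the FPKM was 395.9 for TUB4 (AT5G44340), 274.0 for TUB2, 248.9 for TUB6 and 196.6 for TUB3. It was 111.4 for TUB5 (AT1G20010), 73.01 for TUB9 (AT4G20890), 42.24 for TUB7 (AT2G29550), 35.97 for TUB8 and 32.54 for TUB1. TUB4 was the highest member in each of the 5 groups, and TUB2, TUB3, TUB4 and TUB6 stayed above the other 5 members in each of them. With no replicate error, it cannot be said which neighbours in this order differ beyond their spread. Together the 4 abundant genes made up 79.1% of the summed beta-tubulin level in Col-0 mock and 69.9% in bzr1-1D mock.

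**Figure D2:**
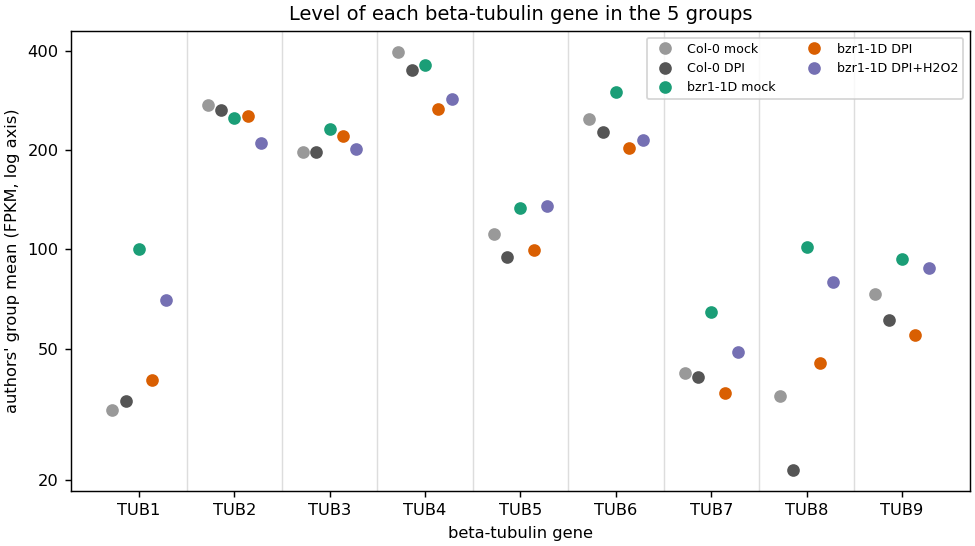
Level of each beta-tubulin gene as the authors' group mean in FPKM on a log axis, with 1 point for each of the 5 groups and no error bars because no values per sample were used. TUB1 and TUB8 stand near 100 in bzr1-1D mock and between 21.46 and 79.67 in the other groups, while TUB2 and TUB3 stay between 196.6 and 274.0.

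TUB1 was the member with the largest difference between bzr1-1D and Col-0 in mock. In Col-0 its level was 32.54 FPKM under mock and 34.6 under DPI, and in bzr1-1D it was 100.35 under mock, 40.15 under DPI and 70.06 under DPI+H2O2. It was high in the mutant without DPI, low in both wild-type groups and in the mutant with DPI, and between them once H2O2 was added. TUB8 in Col-0 was at 35.97 FPKM under mock and 21.46 under DPI, and in bzr1-1D at 101.75 under mock, 45.38 under DPI and 79.67 under DPI+H2O2. Its order over the groups was that of TUB1 except in Col-0, where DPI took it to the lowest value of the series for any member. The highest group mean was 3.08 times the lowest for TUB1 and 4.74 times for TUB8. For the other members this ratio ran from 1.18 for TUB3 to 1.76 for TUB7.

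TUB7, TUB9, TUB6 and TUB5 varied less between groups than TUB1 and TUB8. TUB7 went from 42.24 (mock) to 40.95 (DPI) in Col-0, and stood at 64.6 (mock), 36.79 (DPI) and 48.69 (DPI+H2O2) in bzr1-1D. TUB9 was 73.01, 60.95, 93.28, 55.10 and 87.96 FPKM in the same order of groups. Both were highest in bzr1-1D mock and lowest in bzr1-1D DPI, and with H2O2 TUB9 came nearer to its mock level than TUB7. TUB6 was 248.9, 226.8, 300.0, 202.1 and 215.0, again with bzr1-1D mock highest and bzr1-1D DPI lowest. TUB5 was 111.4, 94.95, 133.1, 99.81 and 135.3, so that its level with H2O2 was the highest of its 5 values. TUB4, the most abundant member, was 395.9, 350.6, 362.8, 265.9 and 285.9, highest in Col-0 mock. TUB2 was 274.0, 263.6, 249.97, 254.1 and 209.7, and TUB3 was 196.6, 197.0, 231.0, 220.6 and 200.9. Their sum does not depend on how shared reads were split between the pair, but would on reads dropped or counted for both genes. It was 470.6, 460.7, 481.0, 474.7 and 410.5 FPKM. The sum of the tandem pair thus lay close together in 4 groups, with the H2O2 group below them.

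**Figure D3:**
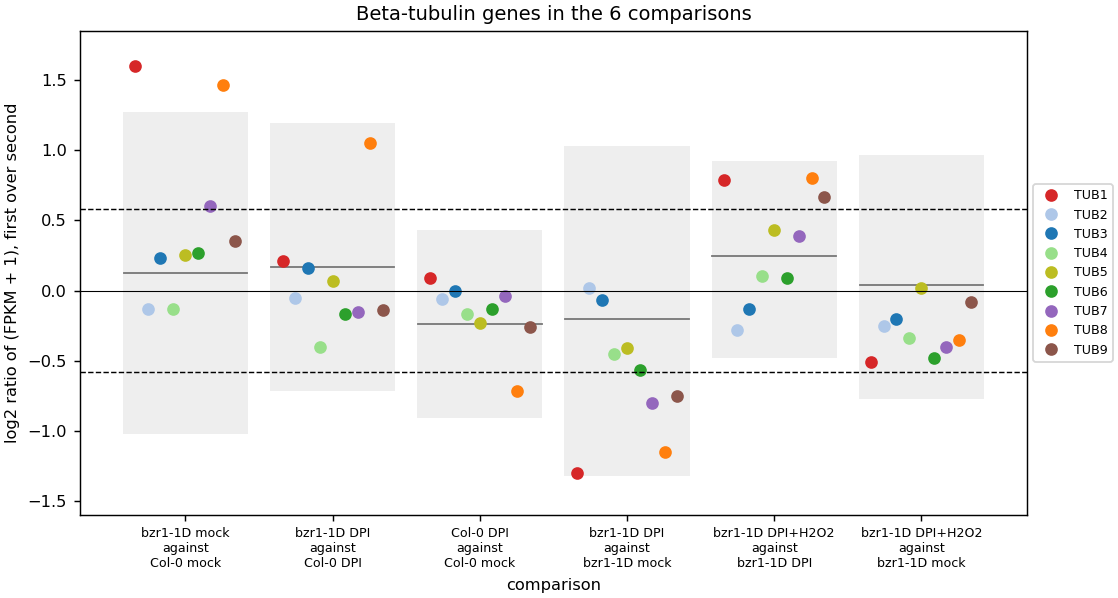
Log2 ratio of (FPKM + 1) of the 9 beta-tubulin genes (coloured points) in the 6 comparisons, with dashed lines at 1.5-fold, a grey line at the median of all genes tested and grey bars from their 5th to their 95th percentile. TUB1 and TUB8 lie above the bar in bzr1-1D mock against Col-0 mock, at 1.60 and 1.47, and no other point of any comparison lies outside a bar.

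In bzr1-1D mock against Col-0 mock, which asks what the mutation did with brassinosteroid depleted, TUB1, TUB8 and TUB7 were higher by at least 1.5-fold. No member was lower by as much. The log2 ratio of (FPKM + 1) was 1.60 for TUB1, 1.47 for TUB8 and 0.60 for TUB7. These are 3.02-fold, 2.78-fold and 1.52-fold. The other 6 members lay between -0.13 (TUB2 and TUB4) and 0.35 (TUB9), within 1.5-fold. Of the 18346 genes with an average of at least 1 FPKM over both groups, 21.8% were called higher and 12.9% lower on the same criterion, so that 3 higher members of 9 and none lower can be read against that. The median gene was itself at 0.12. Relative to it TUB1 stood at 1.47 and TUB8 at 1.35, and TUB7, at 0.48, was no longer past 1.5-fold. With this centring 16.7% of all genes were called higher and 16.5% lower, and the share of calls that were higher went from 62.9% to 50.4%. As many as 484 genes (2.64%) lay as far from 0 as TUB1 or further in the same direction, and 615 (3.35%) as far as TUB8.

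In bzr1-1D DPI against Col-0 DPI, which asks what the mutation did when NADPH oxidases were inhibited, TUB8 was the single member called, at 1.05 (2.06-fold higher, and 0.88 relative to the median gene). TUB1, 3.02-fold higher in mock, stood at 0.21, and TUB7 at -0.15. Of 17694 genes tested, 20.8% were called higher and 7.14% lower, and the median gene was at 0.17. Centred on it, 14% were called higher and 11.2% lower, and 55.4% of the calls were higher in place of 74.5%. The median over the 9 members was -0.05.

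The change of this mutant-to-wild-type difference from mock to DPI was largest for TUB1, at -1.39 on the log2 scale. It was -0.75 for TUB7, -0.49 for TUB9 and -0.43 for both TUB8 and TUB6. It was 0.08 for TUB2 and -0.07 for TUB3. The change was below 0 for 8 of 9 members and for 43.1% of 17335 genes, with medians of -0.43 and 0.07. These differences of ratios carry no error and were not tested. TUB1 and TUB8 reached their values differently: for TUB1 the wild-type level was about the same in mock and DPI, whereas TUB8 was lower with DPI in both genotypes.

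In Col-0 DPI against Col-0 mock, TUB8 was the single member called, at -0.72 (1.65-fold lower). TUB1 was at 0.09 (0.32 relative to the median gene), TUB3 at 0.00 and TUB7 at -0.04, and the lowest of the other members was TUB9 at -0.26. Of 17684 genes, 17.1% were called lower and 3.04% higher, and the median gene was at -0.24. Relative to that median TUB8 was at -0.48 and no longer called. With that centring 6.94% of all genes were called higher and 6.72% lower, and the share of higher calls went from 15.1% to 50.8%.

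In bzr1-1D DPI against bzr1-1D mock, 4 members were lower by at least 1.5-fold and none was higher by as much. TUB1 was at -1.30 (2.46-fold lower), TUB8 at -1.15 (2.22-fold), TUB7 at -0.80 (1.74-fold) and TUB9 at -0.75 (1.68-fold). TUB6, at -0.57 or 1.48-fold, fell just short, and TUB2 was at 0.02. Of 18286 genes, 24.5% were called lower and 12.9% higher, beside which stand the 4 lower of 9. The median gene was at -0.21 and the median member at -0.57. Centring on the median gene left TUB1, TUB8 and TUB7 called, at -1.09, -0.94 and -0.59, and put TUB9 at -0.54. It gave 15.1% of all genes lower and 18.8% higher, and the share of higher calls went from 34.4% to 55.4%.

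In bzr1-1D DPI+H2O2 against bzr1-1D DPI, which asks whether added H2O2 offset the inhibitor, TUB8, TUB1 and TUB9 were higher by at least 1.5-fold, at 0.80, 0.79 and 0.67. These are 1.74-fold, 1.73-fold and 1.59-fold. TUB5 stood at 0.43 and TUB7 at 0.39, whereas TUB2 stood at -0.28 and TUB3 at -0.13. Of 18232 genes, 20% were called higher and 3.14% lower, and the median gene was at 0.25. Relative to it TUB8 was at 0.55, TUB1 at 0.54 and TUB9 at 0.42, and no member was called. On this centred scale 7.71% of all genes were higher and 8.82% lower, and the share of higher calls went from 86.4% to 46.6%. A share regained was worked out only for the 4 members called lower in bzr1-1D DPI against bzr1-1D mock. Of the FPKM difference between these groups, the level with H2O2 made up 49.7% for TUB1, 60.8% for TUB8, 42.8% for TUB7 and 86.1% for TUB9. These shares are as deposited, not centred. Choosing members by a low bzr1-1D DPI mean, which is also the baseline, favours a return. Among members not called lower, TUB6 stood at 0.09 and TUB4 at 0.10 with H2O2, beside TUB5, TUB2 and TUB3 above.

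In bzr1-1D DPI+H2O2 against bzr1-1D mock no member differed by 1.5-fold. The values ran from -0.51 for TUB1 and -0.48 for TUB6 to 0.02 for TUB5, and their median was -0.34 beside 0.04 for all 18523 genes tested. Of those genes 13.1% were called higher and 8.42% lower, or 11.9% and 9.36% after centring on the median gene. The comparisons share groups (bzr1-1D mock enters 3 of them and bzr1-1D DPI another set of 3), so their values are not independent of each other.

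**Figure D4:**
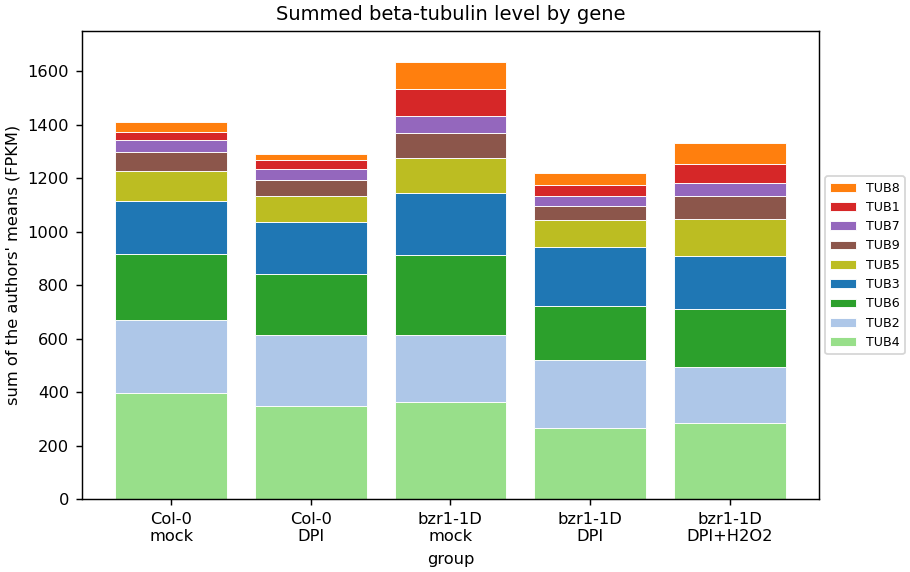
Sum of the authors' means of the 9 beta-tubulin genes in FPKM in each of the 5 groups, stacked by gene from an axis that starts at 0. The bar of bzr1-1D mock is the tallest at 1637, and TUB1 and TUB8 together take 12.3% of it against 4.86% in Col-0 mock.

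The summed beta-tubulin level moved less than its scarcer members did. For Col-0 it was 1411 FPKM with PPZ alone and 1291 with DPI, and for bzr1-1D 1637 with PPZ alone, 1220 with DPI and 1333 with DPI+H2O2. The sum in bzr1-1D mock was 1.16 times that in Col-0 mock as deposited and 1.064 times after division by the median gene ratio. That in Col-0 DPI was 0.915 times as deposited and 1.08 times after this division, so its direction depends on the scaling. On the same footing, bzr1-1D DPI stood at 0.865 and 0.904, and bzr1-1D DPI+H2O2 at 0.945 and 0.845. The H2O2 group was thus above bzr1-1D DPI as deposited and below it after the division. TUB1 and TUB8 together held 4.86% of the sum in Col-0 mock and 4.34% in Col-0 with DPI, and in bzr1-1D they held 12.3% under mock, 7.01% under DPI and 11.2% under DPI+H2O2. Without them the sums were 1342, 1235, 1435, 1134 and 1183. TUB4 held 28.1% of the sum in Col-0 mock and 22.2% in bzr1-1D mock.

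The 6 alpha-tubulin genes, whose products are the partner of beta-tubulin in every dimer, gave a larger difference in sum. In Col-0 they summed to 1841 FPKM (mock) and 1959 (DPI), and in bzr1-1D to 2779 (mock), 2039 (DPI) and 1916 (DPI+H2O2). That of bzr1-1D mock was 1.51 times that of Col-0 mock. In this comparison TUA1 (1.01), TUA2 and TUA4 (0.91 each) were higher, none of the 6 was lower, and the median was 0.67 beside 0.12 for all genes. Of all genes, 21.8% were called higher in it. TUA1 was the scarcest of the 6, with 25.61 FPKM in Col-0 mock and 52.53 in bzr1-1D mock, whereas TUA4 was abundant, with 391.3 and 738.3. The ratio of summed alpha to summed beta level was 1.305 (mock) and 1.518 (DPI) in Col-0, and 1.698 (mock), 1.672 (DPI) and 1.437 (DPI+H2O2) in bzr1-1D. With DPI in bzr1-1D, TUA1, TUA2 and TUA3 were lower, at -1.02, -0.60 and -0.63, beside 24.5% of all genes. With H2O2 added none of the 6 was called against bzr1-1D DPI, where 20% of all genes were higher and 3.14% lower. Each of the 6 was below bzr1-1D mock, from -0.36 for TUA5 to -0.82 for TUA1. TUA1 and TUA2 (-0.65) were lower there by at least 1.5-fold, as were 8.42% of all genes. The counts for this and the following lists are on the scale as deposited, not centred on the median gene. Some alpha-tubulin genes are near-identical copies, so their single values are uncertain as those of TUB2 and TUB3 are.

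Among the 27 listed microtubule-associated genes, 26 were tested in bzr1-1D mock against Col-0 mock. Of these 11 were higher and none lower, beside 21.8% of all genes higher and 12.9% lower. The median of the list was 0.47 beside 0.12 for all genes. The largest was MDP25, which encodes a microtubule-destabilising protein, with 174.0 FPKM under mock and 71.53 under DPI in Col-0, and with 764.2 under mock, 247.3 under DPI and 626.4 under DPI+H2O2 in bzr1-1D. It was high in bzr1-1D without DPI or with H2O2, and low in both Col-0 groups. Next was the MAP65 family gene MAP65-4 at 1.62, with 0.69 FPKM in Col-0 mock and 4.175 in bzr1-1D mock. MDP40, which encodes another microtubule-destabilising protein, stood at 1.33 (1.70 and 5.805 FPKM). The plus-end protein gene EB1C stood at 1.20 (2.57 and 7.18) and the MAP70 family gene MAP70-5 at 1.10 (1.07 and 3.45). The MAP65 family gene MAP65-6 stood at 1.08 and the MAP70 family gene MAP70-2 at 0.98. With DPI in bzr1-1D, 14 of 26 were lower and none higher, beside 24.5% of all genes lower, with a median of -0.60 beside -0.21. With H2O2 added 11 of 26 were higher and none lower, beside 20% of all genes higher, with a median of 0.54 beside 0.25. In Col-0 DPI against Col-0 mock 8 of 23 were lower and none higher, beside 17.1% of all genes lower, with a median of -0.41 beside -0.24. In bzr1-1D DPI against Col-0 DPI 8 of 22 were higher and none lower, beside 20.8% of all genes higher, with a median of 0.37 beside 0.17.

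The genes for gamma-tubulin and its complex, which start new microtubules, were at low levels, with 2 of 5 lower and none higher in bzr1-1D mock against Col-0 mock and a median of -0.55, where 12.9% of all genes were lower. The gamma-tubulin genes TUBG1 and TUBG2 were those lower, at -0.59 and -0.63. Of 8 genes for tubulin folding, TFCA (0.67) and PFD6 (0.70) were higher in that comparison and none was lower, a share near the 21.8% of all genes. The rest of that list stood between -0.22 for TFCD and 0.17 for TFCE. Among 6 tested actin genes, ACT11 alone was higher, at 1.41, beside the same 21.8% of all genes, while the most abundant, ACT2, was at -0.40.

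**Figure D5:**
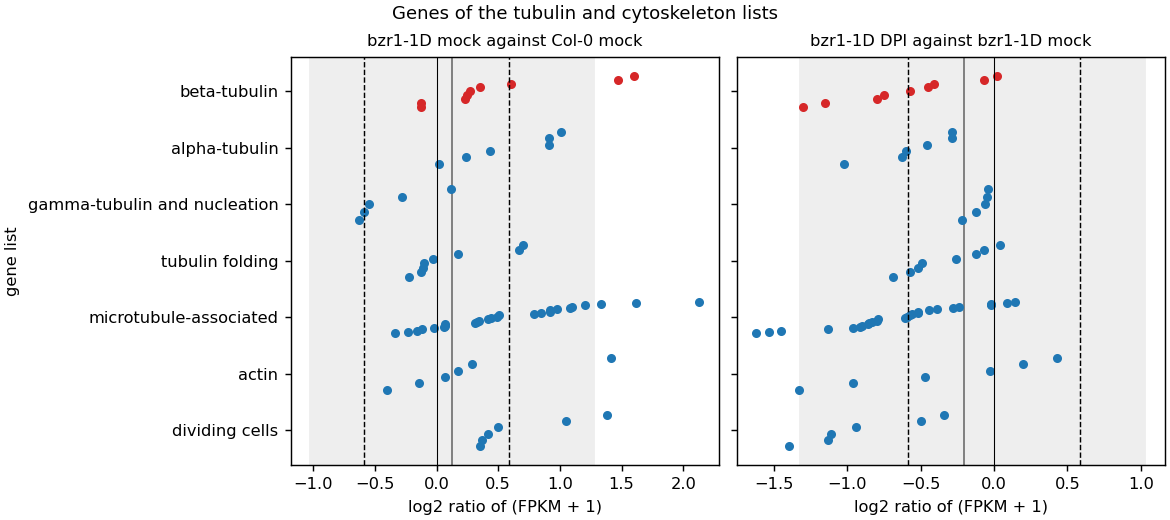
Log2 ratio of (FPKM + 1) for the beta-tubulin genes (red) and the genes of 6 other lists (blue), 1 point for a gene, in bzr1-1D mock against Col-0 mock and in bzr1-1D DPI against bzr1-1D mock; dashed lines mark 1.5-fold, the grey line is the median of all genes and the grey band runs from their 5th to their 95th percentile. In the first panel 3 beta-tubulin, 3 alpha-tubulin and 11 microtubule-associated genes lie to the right of the upper dashed line. So do 2 tubulin folding genes, 1 actin gene and 2 markers of dividing cells, beside 21.8% of all genes.

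Markers of dividing cells were highest in sum in bzr1-1D mock, as TUB1 and TUB8 were. The summed level of 6 such genes, which include B-type cyclins and CDKs and the cytokinesis syntaxin KNOLLE, was 24.55 FPKM (mock) and 18.66 (DPI) for Col-0, and 49.45 (mock), 21.50 (DPI) and 35.54 (DPI+H2O2) for bzr1-1D. In bzr1-1D mock against Col-0 mock 2 of the 6 were higher, CDKB2;1 at 1.38 and CYCB1;2 at 1.05, and the other 4 stood between 0.35 and 0.50; 21.8% of all genes were higher. CDKB2;1 alone went from 8.73 to 24.27 FPKM. In bzr1-1D DPI against bzr1-1D mock 4 of the 6 were lower, beside 24.5% of all genes. The medians were 0.46 and -1.02 in these comparisons, beside 0.12 and -0.21 for all genes. Unlike TUB1 and TUB8, the sum of these markers in bzr1-1D DPI lay below that in Col-0 mock, but the single markers were split. KNOLLE (6.06 FPKM in Col-0 mock and 2.47 in bzr1-1D DPI), CDKB2;2 (3.31 and 2.01) and CYCB1;2 (2.67 and 2.47) were lower. CDKB2;1 (8.73 and 10.72) was higher, and CDKB1;1 (2.90 and 2.93) and CYCB1;1 (0.88 and 0.89) were about level. No gene of this list was at 0 in any group. Its part in the levels of the tubulin genes was not tested. In such bulk samples, fewer cells of a type and less RNA per cell cannot be told apart. Root markers were low in tissue labelled hypocotyl: the 4 root hair genes summed to between 1.64 (bzr1-1D DPI) and 8.86 (Col-0 DPI) and the 3 root meristem genes to between 0.635 and 1.43, while the 3 pollen genes summed to at most 0.075. As a check of the genotype labels, DWF4, a brassinosteroid biosynthesis gene that BZR1 represses, was at 15.5 FPKM in Col-0 mock and 5.15 in bzr1-1D mock, and IAA19, an auxin response gene induced by brassinosteroid, at 3.71 and 86.39.

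The genes nearest to TUB1 in their profile over the 5 groups were taken by the root-mean-square distance between log2(FPKM + 1) profiles, each centred on its own average, among 9035 genes averaging at least 10 FPKM. These were AT5G45280, annotated as an enzyme that deacetylates pectin, at a distance of 0.039, AT5G19250, a GPI-anchored glycoprotein, at 0.076, RALFL22, which encodes a RALF-like peptide, at 0.086, and AT3G49220 and AT4G25260, both of the plant invertase and pectin methylesterase inhibitor superfamily, at 0.087 and 0.110. AT5G45280 had 27.64, 28.93, 82.52, 34.77 and 62.34 FPKM from Col-0 mock to bzr1-1D DPI+H2O2. Its values thus followed TUB1 group by group at a slightly lower level. The nearest member was TUB8, at 0.323. For the summed level the nearest genes were the zinc transporter gene ZAT (0.012), YLS8 (0.031), ILR3 and IBR10 (0.034 each) and AT3G18060 (0.037), with TUB6 as the nearest member at 0.066. These distances rest on 5 means each and are a description.

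Brassinosteroid-regulated promoters often hold the brassinosteroid response element, searched here as CGTGTG or CGTGCG, or the E-box CATGTG, both bound by BZR1, and BZR1 also binds the G-box CACGTG. The 250 bases before the start of the RefSeq gene model were searched on both strands. Of 27443 such windows over all genes, 6.71% held the response element, 6.49% the G-box and 11.1% CATGTG, while the general E-box CANNTG, which takes in the G-box and CATGTG, was in 55.3%. The windows are shown for TUB1 and TUB8, which differed most, and for TUB7 and TUB2 as members that held a match; each is read from TAIR10.1 on the gene's own strand, and capitals mark the matches to the response element, the G-box and CATGTG. The windows are chr1:28453821-28454070 (minus strand) for TUB1, chr5:8042603-8042852 (plus) for TUB8, chr2:12646058-12646307 (minus) for TUB7 and chr5:25181046-25181295 (plus) for TUB2.
TUB1: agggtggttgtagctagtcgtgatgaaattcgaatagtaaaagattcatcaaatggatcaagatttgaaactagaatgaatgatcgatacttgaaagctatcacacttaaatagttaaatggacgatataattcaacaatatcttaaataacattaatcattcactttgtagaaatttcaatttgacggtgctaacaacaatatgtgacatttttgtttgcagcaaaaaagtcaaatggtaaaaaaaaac
TUB8: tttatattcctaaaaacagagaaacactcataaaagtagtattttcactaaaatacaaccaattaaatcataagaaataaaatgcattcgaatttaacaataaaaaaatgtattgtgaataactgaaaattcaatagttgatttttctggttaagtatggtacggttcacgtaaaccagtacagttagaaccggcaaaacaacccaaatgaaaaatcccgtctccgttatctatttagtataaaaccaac
TUB7: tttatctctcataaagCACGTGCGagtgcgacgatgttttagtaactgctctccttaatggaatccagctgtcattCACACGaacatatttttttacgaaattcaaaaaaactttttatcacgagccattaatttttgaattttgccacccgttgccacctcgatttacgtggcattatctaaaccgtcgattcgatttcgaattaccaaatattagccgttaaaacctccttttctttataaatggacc
TUB2: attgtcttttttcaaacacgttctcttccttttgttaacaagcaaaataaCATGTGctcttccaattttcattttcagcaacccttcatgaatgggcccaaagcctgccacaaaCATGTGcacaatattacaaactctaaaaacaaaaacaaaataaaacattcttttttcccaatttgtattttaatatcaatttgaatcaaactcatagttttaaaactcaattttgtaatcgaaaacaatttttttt

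TUB7 held 2 matches to the response element, with their first bases 232 and 174 bases before the start, the former overlapping a G-box at 234. TUB2 held 2 CATGTG matches, at 200 and 136, and its tandem copy TUB3 held 2 as well, at 224 and 160, while TUB6 held 1 at 73. The windows of TUB1, TUB8, TUB4, TUB5 and TUB9 held none of these 3, and TUB1 held 2 matches to CANNTG and TUB8 1. TUB1 and TUB8, with the largest differences between bzr1-1D and Col-0 in mock, thus held no match. TUB7, also called higher there at 0.60, held the response element and the G-box, and TUB2, TUB3 and TUB6, within 1.5-fold, held CATGTG. A link between matches and levels was not tested, and no match says only that these letters are not in this window. The start of TUB8 in the authors' tables lies inside the RefSeq model, whereas the other 8 genes have equal start and end in both.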

How the data were processed

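RNA was sequenced by the authors on the BGISEQ-500 platform and mapped with HISAT and Bowtie2 (versions not given in the sources used here) to TAIR10, per the submitters' processing notes. The deposited tables give, for pairs of groups, the authors' mean of each gene per group, read here as FPKM since values are not whole and sum to about the same total in each group. Their columns of log2 ratio, probability and direction, made with NOISeq, are the authors' own comparisons and were not used. The columns name the mutant ERD where titles have bzr1-1D. By their decimals, the means average 3 libraries in both Col-0 groups and in bzr1-1D with DPI, and 2 in bzr1-1D DPI+H2O2 and in bzr1-1D mock, for which the labels list 3.

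From 6 complete tables, log2((mean + 1)/(mean + 1)) was computed with a pseudocount of 1 for genes averaging at least 1 over both groups, and called at 1.5-fold. This scale understates the change of low genes. With group means alone, no test, SD or interval could be computed. Left out were 5 tables of genes chosen by the authors' calls and 1 table that ends within a row. Members, gene lists and rules were chosen with earlier results of these data known. Named were the 9 members, genes of fixed lists (alpha- and gamma-tubulin, folding, microtubule-associated, actin, markers of dividing cells, root hair, root meristem and pollen, brassinosteroid response), and the 5 genes nearest in profile to TUB1 and to the summed level. Sequences came from RefSeq TAIR10.1, where 24133 of 24145 gene spans of the tables lay inside the gene of the same identifier. Alternatives were another pseudocount (0.1 or none), filter (none or 10), fold (2) and scaling. Python 3.11.15, pandas 2.3.3, NumPy 2.4.6, Biopython 1.88 and matplotlib 3.10.9 were used, and the calculations were tested on simulated data.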

Additional observations from a re-analysis of the deposited data

How the results depend on the processing

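Over the alternatives run, 364 log2 ratios of the members kept their side of the threshold, and 0 changed sign while called. Another 13 were no longer past it, all at 2-fold or with centring on the median gene. Only 1 came past it, TUB6 in bzr1-1D DPI against bzr1-1D mock, at -0.60 with each group scaled to 1 common sum. The lowest member mean was 21.46 FPKM, so the filter settings could not move any member's ratio and the pseudocounts could move it only a little. Much of the 364 was thus unchanged by construction. Members within 1.5-fold could change sign with centring, as TUB2 did in Col-0 DPI against Col-0 mock, from -0.06 to 0.18. In the order bzr1-1D mock against Col-0 mock, bzr1-1D DPI against Col-0 DPI, Col-0 DPI against Col-0 mock, bzr1-1D DPI against bzr1-1D mock, bzr1-1D DPI+H2O2 against bzr1-1D DPI and bzr1-1D DPI+H2O2 against bzr1-1D mock, the genes called were 6367, 4950, 3568, 6834, 4217 and 3992, those with an average of at least 10 were 3333, 2199, 1422, 3652, 2124 and 2120, and those past 2-fold 2580, 1832, 854, 2697, 768 and 1376; fewer genes tested and the stricter fold account for these by construction. At 2-fold, the beta-tubulin genes lower in Col-0 DPI against Col-0 mock went from 1 to 0, those lower in bzr1-1D DPI against bzr1-1D mock from 4 to 2 (TUB1 and TUB8), and those higher in bzr1-1D DPI+H2O2 against bzr1-1D DPI from 3 to 0. Centring on the median gene gave 0 for the first and the third. The summed level of Col-0 DPI over Col-0 mock was 0.915 as deposited and 1.08 when divided by the median gene ratio, so its direction depends on the scaling. The summed level of bzr1-1D DPI+H2O2 lay above that of bzr1-1D DPI as deposited and below it after the same division. The cause was not tested. No paired analysis was possible because the tables hold group means, and for the same reason no replicate could be left out. Depth is unknown and limits what low genes can show.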
